A study of Homo sapiens with 3 samples.

Results

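The transcriptome of UM-UC-3 cells that carried shRNA 2 against the long non-coding RNA BLACAT2 was compared with that of UM-UC-3 cells that carried shRNA 1 against the same RNA. UM-UC-3 is an established human bladder cancer cell line. A short hairpin RNA (shRNA) is processed in the cell to a small RNA that directs the loss of matching transcripts, and hairpins of different sequence against 1 target are used to separate effects of the target from those of a single hairpin. Per the labels' protocols, the cells were infected with lentivirus and kept under puromycin for 2 weeks to give stable lines, and the polyA+ RNA was made into libraries with a stranded mRNA kit. The series holds 3 libraries, 1 each of shControl (a scramble hairpin with no named target), shRNA 1 and shRNA 2. All 3 lines went through the same lentiviral infection and selection. The comparison of the 2 hairpin libraries uses 1 library a side, so it has no replicate error and no p-value is given. The shControl library served as the reference that shows which hairpin library lay away from it.

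Several programs that recur below are known as follows. Interferon-stimulated genes encode antiviral proteins and are switched on by transcription factors that bind the interferon-stimulated response element (ISRE) in their promoters after cells sense double-stranded RNA or interferon. ATF4 is a transcription factor whose translation rises when the kinases of the integrated stress response, among them the double-stranded RNA sensor PKR (EIF2AK2) and the endoplasmic reticulum sensor PERK (EIF2AK3), phosphorylate the initiation factor eIF2 alpha. Its targets import and make amino acids. Sterol regulatory element binding proteins (SREBPs) drive the genes of cholesterol synthesis and uptake when membrane sterol is low, and p53 drives genes of cell cycle arrest and cell death after damage.

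The libraries held 16424422 counts (shControl), 17670199 (shRNA 1) and 16216947 (shRNA 2). Genes whose CPM (counts scaled to a common library size) averaged at least 1 over the 3 libraries were compared, 15132 of 50867. A difference is given as a ratio of counts scaled by TMM (the trimmed mean of M values, which balances library composition), with a 95% interval for counting error alone (the labels name no molecular identifiers). List medians are medians of log2 CPM differences (prior count 2). In counts of genes, higher and lower mean a difference of at least 1 on this scale, that is 2-fold. Genes that overlap others or have near-identical copies, such as the HLA, late cornified envelope, CYP4F and immunoglobulin genes, may share reads, and neither strand use in the counting nor the handling of reads that map to several genes was given in the sources used here. In bulk RNA, more cells of a kind and more RNA per cell cannot be told apart.

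The target came first. BLACAT2 is listed as LINC00958 (ENSG00000251381, chr11:12961842-12989548 on hg38, minus strand), a gene of the lincRNA class. LINC00958 had 938 counts in shControl, 816 in shRNA 1 and 1062 in shRNA 2. The library labelled shRNA 2 was thus 1.35-fold of the shRNA 1 level (95% interval 1.24 to 1.49) and was not below shControl, so these counts did not show the depletion that the label names. Scaled levels of LINC00958 were 61.8 CPM in shControl, 45.4 in shRNA 1 and 61.5 in shRNA 2. The shRNA 1 library was therefore lower than shControl by less than 2-fold (log2 ratio −0.44). The series' design text says that depletion was checked by quantitative PCR before the libraries were made. Every direction below compares the library labelled shRNA 2 with the library labelled shRNA 1.

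Of the 15132 genes, 1264 (8.35%) were at least 2-fold higher in the library labelled shRNA 2 and 678 (4.48%) were at least 2-fold lower. These shares, 12.8% in either direction, are the background for every gene list below. The median log2 ratio over all genes was 0.00, with quartiles of −0.35 and 0.38. A difference of at least 4-fold was found for 361 genes in the higher direction and 69 in the lower. The whole counting interval lay beyond 2-fold for 743 of the higher and 306 of the lower genes. At the edge of the rule, RP1-92O14.3 and RP11-259N19.1 each counted as higher with 39 and 77 counts in shRNA 1 and shRNA 2, and RETSAT (740 and 1424) just did not. The median level of the higher genes was 3.39 CPM in shControl, 2.09 in shRNA 1 and 8.05 in shRNA 2. Of them 195 were under 1 CPM in both other libraries, and such genes passed the filter only through their level in shRNA 2, as 26 lower genes under 1 CPM in shControl and shRNA 2 did through shRNA 1. The lower genes had medians of 12.8, 15.0 and 5.36 CPM.

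**Figure D1:**
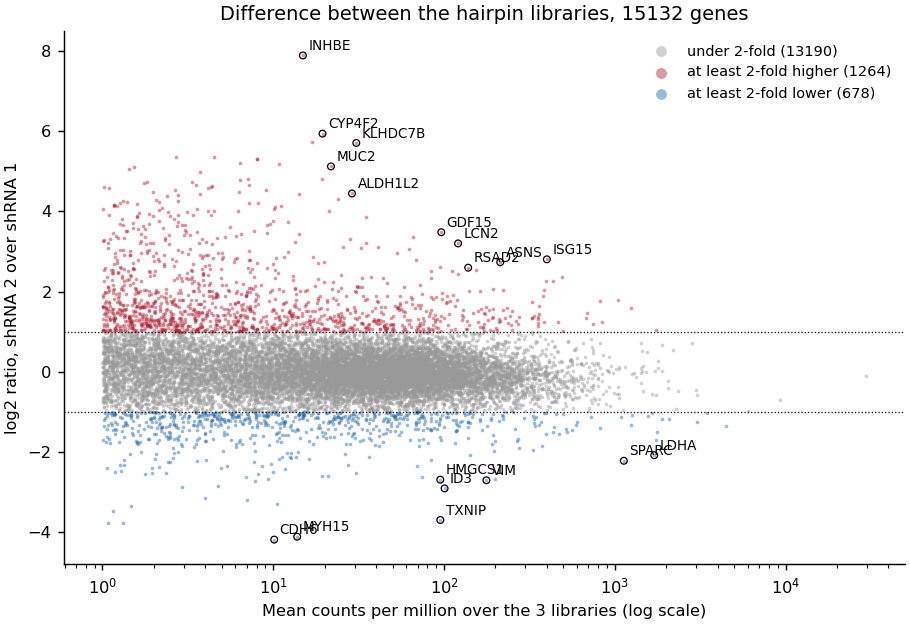
Each point is 1 of 15132 genes, by its mean CPM over the 3 libraries (log scale) and its log2 ratio of the shRNA 2 over the shRNA 1 library, with dotted lines at 2-fold and circles around genes named in the text. Points above the upper line (1264) outnumber those below the lower one (678), and the farthest from 0 are among genes of low and middle level.

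Which library stood apart from shControl was read gene by gene. Of the 1264 higher genes, 602 (47.6%) were at least 2-fold away from shControl in shRNA 2 alone and 186 (14.7%) in shRNA 1 alone. A further 158 were away in both in 1 direction, 95 in both but in opposite directions, and 223 in neither. Of the 678 lower genes, 249 (36.7%) were away in shRNA 2 alone, 134 in shRNA 1 alone, 127 in both in 1 direction, 9 in both in opposite directions and 159 in neither. For 895 higher (70.8%) and 438 lower genes (64.6%) the control lay nearer to shRNA 1. Among the genes that passed the filter, the difference between the hairpin libraries was thus more often a departure of shRNA 2 from shControl. For 14.7% of the higher and 19.8% of the lower genes it was one of shRNA 1 alone. The filter shapes these shares, since 195 higher genes under 1 CPM in both other libraries passed it only through shRNA 2. Likewise 26 lower genes passed it only through shRNA 1. The part of such genes in the shares was not tested. As background, 7.92% of all genes were at least 2-fold higher and 7.38% lower in shRNA 1 than in shControl, and 13.0% and 8.76% in shRNA 2.

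**Figure D2:**
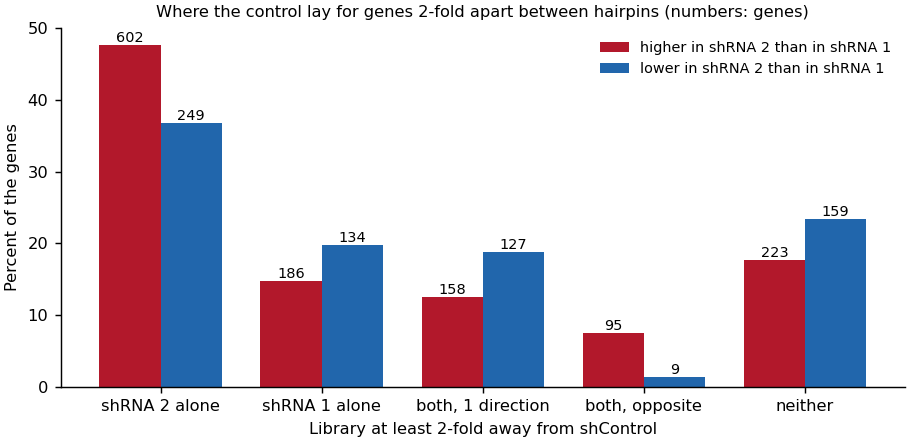
Bars give the percentage of the 1264 higher and the 678 lower genes by which hairpin library lay at least 2-fold from shControl, with the number of genes above each bar. The bar for shRNA 2 alone is the tallest in both directions (602 and 249 genes).

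The genes highest over shRNA 1 had low counts in both other libraries and high counts in the library labelled shRNA 2 alone. Ranking by this ratio after the filter favours such a pattern. INHBE, ECM2, LCE1B and PAPPA2 were under 1 CPM in both other libraries and passed the filter only through shRNA 2. Genes named further below that did so include PRAP1, IFNL1, ZBP1, CXCL11, NUPR1, EDA2R and KDR. INHBE (chr12:57452323-57459280), which encodes the subunit of activin E, had 9 counts in shControl, 1 in shRNA 1 and 716 in shRNA 2, a ratio of 745-fold with a 95% interval of 133 to 29474 that rests on the 1 count in shRNA 1. ALDH1L2, a mitochondrial enzyme of folate metabolism, had 138 counts in shControl, 56 in shRNA 1 and 1219 in shRNA 2 and was 22.7-fold higher (95% interval 17.3 to 30.2). CYP4F2 (chr19:15878023-15898120), which hydroxylates fatty acids and vitamins E and K, had 41 counts in shControl, 13 in shRNA 1 and 893 in shRNA 2 and was 71.5-fold higher (95% interval 41.6 to 135). In INHBE, CYP4F2 and ALDH1L2 the shRNA 1 library lay below shControl while shRNA 2 lay far above it. KLHDC7B (chr22:50548033-50551023), a kelch-domain protein, had 2 counts in shControl, 27 in shRNA 1 and 1464 in shRNA 2 and was 56.4-fold higher (95% interval 38.6 to 85.9). MUC2 (chr11:1074875-1110511), the gel-forming mucin of the intestine, had 25 counts in shControl, 28 in shRNA 1 and 1009 in shRNA 2 and was 37.5-fold higher (95% interval 25.8 to 56.7). The transcription factor CREB5, a relative of ATF2, had 24 counts in shControl, 12 in shRNA 1 and 489 in shRNA 2, 42.4-fold higher (95% interval 24.1 to 82.6). For MUC2 both other libraries were low and close to each other, and for KLHDC7B shRNA 1 already lay above the 2 counts of shControl.

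The other genes among the 12 highest held matrix and cornified envelope proteins. The matrix protein gene ECM2 had 2, 8 and 383 counts in shControl, shRNA 1 and shRNA 2 (the order used from here on) and was 49.8-fold higher (95% interval 25 to 116). HMCN2, a hemicentin of the basement membrane, had 52, 30 and 866 and was 30.04-fold higher (95% interval 20.9 to 44.8). ITGAM, the alpha chain of an integrin known from myeloid cells, had 19, 6 and 288 and was 49.96-fold higher (95% interval 22.7 to 137). LCE1B, a late cornified envelope gene of the epidermis, had 9, 1 and 121, with a ratio of 126-fold and a 95% interval of 22.2 to 5015. LHX3, a homeobox gene of pituitary and motor neuron development, had 23, 3 and 155, with a ratio of 53.8-fold and an interval of 18.1 to 264. PAPPA2, a protease of insulin-like growth factor binding proteins, had 6, 0 and 69. Its ratio was 23.9-fold against a floor of 3 counts in shRNA 1, and its 95% interval began at 18.95. All 6 of these genes had fewer counts in shRNA 1 than in shControl except ECM2, and all 6 were highest in shRNA 2.

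Among the genes lowest over shRNA 1, some were low in the library labelled shRNA 2 alone. TXNIP (chr1:145992435-145996600), a glucose-responsive inhibitor of thioredoxin and of glucose uptake, had 1943 counts in shControl, 2735 in shRNA 1 and 200 in shRNA 2 and was 13.1-fold lower (95% interval 11.4 to 15.2). ID3, which blocks the DNA binding of basic helix-loop-helix factors, had 2106, 2703 and 343 and was 7.57-fold lower (95% interval 6.76 to 8.5). The carbonic anhydrase gene CA9 had 28, 27 and 0 and VIM-AS1, a transcript antisense to VIM, had 40, 27 and 0. Both were 8.65-fold lower against a floor of 3 counts, with 95% intervals that began at 6.56-fold. In TXNIP, ID3 and CA9 shControl and shRNA 1 were close and shRNA 2 stood apart. Others were already lower in shRNA 1 than in shControl and lower again in shRNA 2. The cadherin gene CDH6 had 409, 94 and 3 (30.1-fold lower, 95% interval 9.99 to 149), and the parathyroid hormone-like hormone gene PTHLH had 436, 81 and 6 (13-fold, interval 5.71 to 36.4). MYH15, a myosin heavy chain gene, had 434, 252 and 12 (20.2-fold, interval 11.3 to 39.6), the lysyl oxidase gene LOXL2 had 6030, 3469 and 521 (6.4-fold, interval 5.83 to 7.03), and OLFML2B had 212, 132 and 12 (10.6-fold, interval 5.85 to 21). Others again were high in shRNA 1 alone. KLHL14 had 2, 56 and 3 and PRAMEF1 had 36, 157 and 15, 17.9-fold (interval 5.83 to 89.6) and 10.1-fold lower (interval 5.91 to 18.4). HMGCS1, which makes the first committed precursor of the cholesterol pathway, had 1144, 3282 and 485 and was 6.5-fold lower (95% interval 5.91 to 7.17).

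Genes on opposite sides of shControl, by at least 2-fold in each hairpin library, numbered 95 in the higher and 9 in the lower direction. Besides INHBE, PAPPA2 and LHX3 the higher ones included IGHG1, an immunoglobulin constant region gene with 22, 4 and 147 counts, PRAP1 with 6, 0 and 47 and WDFY4 with 20, 4 and 111. The lower ones included, besides PRAMEF1 and HMGCS1, the BMP signalling inhibitor SMAD6 with 71, 250 and 37, the kinase gene TNIK with 276, 700 and 108, MXRA5 with 21, 70 and 10 and ADAM22 with 31, 82 and 15. For these genes the sign of the difference from shControl depends on the hairpin library used.

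Interferon-stimulated genes formed the widest program that was higher in the library labelled shRNA 2. Of 42 measured members of the list, 32 were at least 2-fold higher and none lower, beside 8.35% and 4.48% of all genes. The list's median log2 ratio was 1.45, against 0.00 over all genes, and 41 of 42 members lay above 0. Over shControl the median was 0.46 in shRNA 1 and 2.10 in shRNA 2, with 10 and 38 members at least 2-fold away from it. The promoters of ISG15 and IFIT1 are shown from 250 bases before to 50 bases after the RefSeq start, because both hold matches to the interferon-stimulated response element. Letters are 5′ to 3′ on the gene's strand (RefSeq, GRCh38.p14), and capitals mark matches to the ISRE motif, searched on both strands as GAAA, any 2 bases and GAAA again. ISG15 is at chr1:1013247-1013546 on the plus strand and IFIT1 at chr10:89392373-89392672 on the plus strand.
ISG15: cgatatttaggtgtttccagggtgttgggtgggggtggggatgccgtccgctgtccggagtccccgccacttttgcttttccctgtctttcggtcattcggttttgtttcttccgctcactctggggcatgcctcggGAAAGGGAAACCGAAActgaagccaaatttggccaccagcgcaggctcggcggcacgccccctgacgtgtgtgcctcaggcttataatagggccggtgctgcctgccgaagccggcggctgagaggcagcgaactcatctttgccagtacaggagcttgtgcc
IFIT1: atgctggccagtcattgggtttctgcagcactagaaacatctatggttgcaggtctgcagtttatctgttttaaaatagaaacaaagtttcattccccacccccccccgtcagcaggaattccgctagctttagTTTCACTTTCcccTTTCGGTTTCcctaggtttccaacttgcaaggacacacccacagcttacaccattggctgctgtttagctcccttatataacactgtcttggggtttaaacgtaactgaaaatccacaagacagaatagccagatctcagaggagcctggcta
The motif occurs 2 times in each, first at position −113 in ISG15 and −116 in IFIT1 relative to the start, and in ISG15 the copies overlap. IFIT1 (chosen after its values were seen) encodes an antiviral protein that binds foreign RNA, and its counts of 1429, 1917 and 7538 made it 4.09-fold higher (95% interval 3.89 to 4.31).

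Within that list each of the 3 arms had a median of at least 1.01. ISG15, the ubiquitin-like modifier that gives its system the name, had 2458 counts in shControl, 2229 in shRNA 1 and 14991 in shRNA 2 and was 7.0-fold higher (95% interval 6.69 to 7.32). USP18, the protease that removes it and dampens interferon signalling, had 537, 618 and 2988 and was 5.03-fold higher (95% interval 4.61 to 5.5). The 5 genes of this conjugation system had a median log2 ratio of 2.06. The antiviral effectors (24 of 32 higher, median 1.57) included the GTPases MX2, with 1165, 1132 and 7802 counts (7.17-fold higher, 95% interval 6.74 to 7.64), and MX1, with 2295, 3402 and 15678 (4.8-fold higher, 95% interval 4.62 to 4.98). RSAD2, which encodes viperin, had 264, 961 and 5596 and was 6.06-fold higher (95% interval 5.66 to 6.5), and its neighbour CMPK2, a mitochondrial nucleotide kinase, had 262, 800 and 4393 and was 5.72-fold higher (95% interval 5.3 to 6.17). IFI44L had 389, 623 and 3669 (6.13-fold higher, 95% interval 5.63 to 6.68) and IFI6, a membrane protein, 4573, 3306 and 16243 (5.11-fold higher, 95% interval 4.93 to 5.31). Genes of ADP-ribosylation (PARP9, PARP10, PARP12, PARP14 and DTX3L) had a lower median of 1.01, with 4 of 5 higher. For MX2, ISG15, USP18 and IFI6 shRNA 1 was level with or below shControl in scaled counts, while RSAD2 and CMPK2 were already higher in shRNA 1. GBP2 (chosen after its values were seen) was the 1 member below 0, with 86, 154 and 115 counts and a log2 ratio of −0.36.

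**Figure D3:**
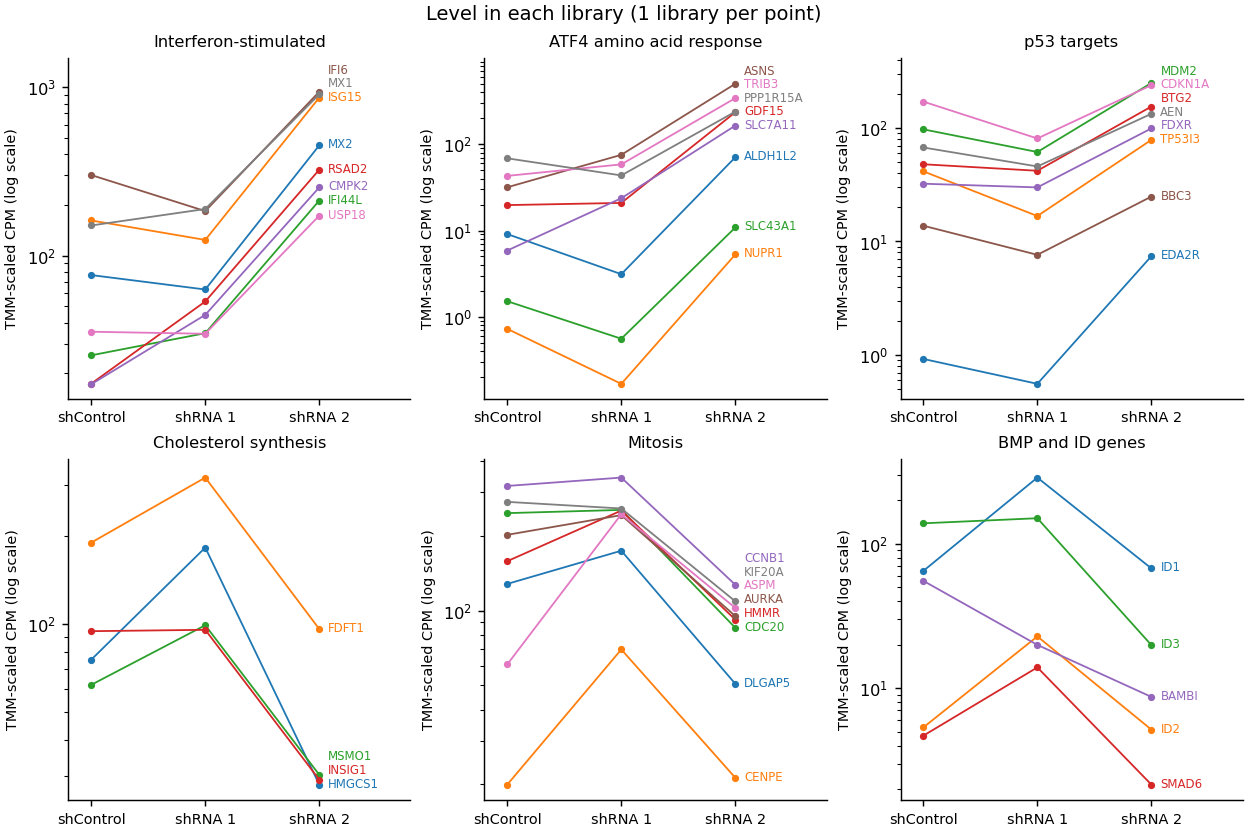
TMM-scaled CPM (log scale) in each of the 3 libraries for named members of 6 gene groups, 1 point per library and 1 line per gene. Interferon-stimulated, ATF4 and p53 target genes are highest in shRNA 2, cholesterol and mitosis genes are lower in shRNA 2 than in shRNA 1, and ID1, ID2 and SMAD6 peak in shRNA 1.

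Upstream of these genes the difference was uneven. Of 34 measured genes of double-stranded RNA sensing and interferon signalling, 11 were higher and 2 lower (median 0.28). Among the RNA sensors 1 of 9 was lower and 5 were higher, DDX58 (RIG-I), IFIH1 (MDA5), ZNFX1, DHX58 and ZBP1, with DHX58 (LGP2) at 129, 125 and 417 counts (3.47-fold higher, 95% interval 2.84 to 4.27) and the left-handed nucleic acid sensor ZBP1 at 4, 11 and 50 (4.73-fold higher, 95% interval 2.43 to 10.1). The transcription factor IRF7, which amplifies interferon production, had 925, 1165 and 3844 and was 3.43-fold higher (95% interval 3.22 to 3.67). IFNL1, a type III interferon, had 2, 4 and 156 counts and was 40.6-fold higher (95% interval 15.5 to 151), and it lies beside near-identical interferon lambda genes. None of 5 adaptors and kinases reached 2-fold (median −0.18), and 1 of 8 receptors and inhibitors did, the feedback inhibitor SOCS1 (61, 34 and 68, picked after seeing its values). Of the 2 lower genes, the interferon epsilon gene IFNE, chosen after its values were seen, was at 23, 33 and 8 counts and highest in shRNA 1.

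Antigen presentation and cytokine genes differed by less. Of 24 measured genes of antigen processing and presentation, 5 were higher and none lower, with a median of 0.51. They were the class I chains HLA-E (4049, 4599 and 10478 counts, 2.37-fold higher), HLA-F (935, 1204 and 2468, 2.13-fold) and HLA-C (2337, 1472 and 2979, 2.11-fold), the class I transactivator NLRC5 (839, 688 and 1619, 2.45-fold) and the PD-1 ligand gene PDCD1LG2 (287, 175 and 365, 2.17-fold). The 11 genes of peptide supply held none at 2-fold and had a median of 0.14. Of 25 chemokines and interleukins, 11 were higher and none lower (median 0.73), and the control sat differently here: the medians over shControl were −0.92 in shRNA 1 and 0.09 in shRNA 2. CSF2, a growth factor of granulocytes and macrophages, had 649, 86 and 289 counts (3.5-fold higher, 95% interval 2.74 to 4.5), IL11 had 817, 163 and 486 (3.1-fold higher, 95% interval 2.59 to 3.73) and CSF1 508, 205 and 791 (4.02-fold higher, 95% interval 3.44 to 4.71). For CSF2 and IL11 both hairpin libraries lay below shControl, shRNA 1 the farther. The interferon-induced chemokines CXCL11 (10, 8 and 56), CXCL10 (17, 19 and 50) and CCL5 (46, 44 and 180) were instead close in the other libraries and 7.29-fold, 2.74-fold and 4.26-fold higher, on few counts. CXCL5 (40, 28 and 77) and IL24 (71, 35 and 98) were 2.86-fold and 2.91-fold higher. Of 19 NF-kB subunits and feedback genes 3 were higher, RELB (515, 247 and 888, 3.74-fold), TRAF1 (120, 47 and 177, 3.92-fold) and the deubiquitinase gene TNFAIP3 (3954, 1944 and 3785, 2.03-fold). The median log2 ratio of that list was 0.35.

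The ATF4 amino acid response had a median ratio close to that of the interferon list. Of 39 measured members 25 were at least 2-fold higher and none lower, with a median log2 ratio of 1.43. The medians over shControl were 0.44 in shRNA 1 and 1.79 in shRNA 2. The promoters of ASNS and CHAC1 are shown because both hold the C/EBP-ATF response element (CARE), yet only ASNS differed between the hairpin libraries by 2-fold. ASNS is at chr7:97872359-97872658 on the minus strand and CHAC1 at chr15:40953221-40953520 on the plus strand, both 5′ to 3′ on the gene's strand (RefSeq, GRCh38.p14), with capitals at matches to TGATGNAA on either strand.
ASNS: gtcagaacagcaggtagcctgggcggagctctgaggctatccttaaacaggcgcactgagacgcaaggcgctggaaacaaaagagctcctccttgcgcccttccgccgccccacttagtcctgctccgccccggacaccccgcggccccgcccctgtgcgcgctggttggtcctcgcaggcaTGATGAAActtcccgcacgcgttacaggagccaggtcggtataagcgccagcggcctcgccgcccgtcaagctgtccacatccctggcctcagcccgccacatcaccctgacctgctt
CHAC1: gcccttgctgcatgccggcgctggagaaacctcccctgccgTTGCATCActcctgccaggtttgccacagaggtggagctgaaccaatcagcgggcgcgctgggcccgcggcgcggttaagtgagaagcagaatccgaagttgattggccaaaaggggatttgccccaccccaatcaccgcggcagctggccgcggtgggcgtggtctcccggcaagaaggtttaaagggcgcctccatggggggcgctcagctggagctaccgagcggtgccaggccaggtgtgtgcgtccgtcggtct
The match starts at position −68 in ASNS and at −209 in CHAC1. ASNS, asparagine synthetase, had 481 counts in shControl, 1353 in shRNA 1 and 8662 in shRNA 2 and was 6.66-fold higher (95% interval 6.29 to 7.06). CHAC1 (picked after seeing its values), a glutathione-degrading enzyme, had 33, 497 and 662 counts and a log2 ratio of 0.47, and so was far above shControl in both hairpin libraries.

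Transport, synthesis and regulatory genes of that response all held higher members. The cystine transporter SLC7A11 had 89 counts in shControl, 425 in shRNA 1 and 2836 in shRNA 2 and was 6.95-fold higher (95% interval 6.27 to 7.71). SLC43A1, a transporter of large neutral amino acids, had 23, 10 and 187 (19.5-fold higher, 95% interval 10.4 to 41.3). Of 10 transporters 8 were higher (median 1.43), and of 13 genes of amino acid synthesis 8 were (median 1.46). Among the regulators (6 of 13, median 0.84), TRIB3, a pseudokinase that restrains ATF4, had 652, 1049 and 5905 counts (5.86-fold higher, 95% interval 5.49 to 6.26), and PPP1R15A, which returns eIF2 alpha to its unphosphorylated form, had 1042, 781 and 4115 (5.48-fold higher, 95% interval 5.08 to 5.93). NUPR1, a stress-induced chromatin protein, had 11, 3 and 91 counts, a ratio of 31.6-fold with an interval of 10.5 to 156. GDF15, a secreted stress hormone, had 299, 375 and 4049 and was 11.2-fold higher (95% interval 10.1 to 12.5). ATF4 itself, picked after seeing its values, had 4264, 8069 and 10958 counts and a log2 ratio of 0.50. ALDH1L2, NUPR1, SLC43A1 and PPP1R15A were below shControl in shRNA 1, while ASNS, SLC7A11 and TRIB3 were above it in both libraries.

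The tRNA synthetase genes differed by the class they were listed under. Of 20 tRNA synthetase genes listed as cytosolic 5 were higher: WARS (1661, 3478 and 13816 counts, 4.13-fold), GARS (3018, 4252 and 10501, 2.57-fold), YARS (2077, 2719 and 6575, 2.52-fold), AARS (4528, 5668 and 12893, 2.37-fold) and SARS (2700, 2795 and 6267, 2.33-fold, chosen after its values were seen). None of the 16 listed as mitochondrial was, and their median was −0.03 against 0.42. Each gene was listed under 1 class only, and whether its product also serves the other compartment was not considered. WARS is also known as an interferon-induced gene. Of 29 genes of the endoplasmic reticulum unfolded protein response 4 were higher and none lower (median 0.35): the chaperone HSPA5 (BiP) with 13206, 12472 and 36004 (3.0-fold higher, 95% interval 2.94 to 3.07), its co-chaperone DNAJB9 with 339, 298 and 660 (2.31-fold), the sensor ERN1 (IRE1) with 194, 182 and 429 (2.45-fold) and its substrate XBP1 with 1499, 1597 and 3724 (2.43-fold). None of 9 genes of endoplasmic reticulum degradation reached 2-fold. HSPA5 and XBP1 were 2-fold away from shControl in shRNA 2 alone, and DNAJB9 and ERN1 in neither library.

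p53 target genes were higher in the library labelled shRNA 2 as well, with shRNA 1 on the other side of shControl for some. Of 27 measured, 17 were higher and none lower, with a median of 1.16 and medians over shControl of −0.23 in shRNA 1 and 0.85 in shRNA 2. MDM2, the ubiquitin ligase that degrades p53, had 1477 counts in shControl, 1103 in shRNA 1 and 4298 in shRNA 2 and was 4.06-fold higher (95% interval 3.8 to 4.34). CDKN1A (p21), the inhibitor of cyclin-dependent kinases, had 2593, 1452 and 4115 (2.95-fold higher, 95% interval 2.78 to 3.13), and BTG2 had 727, 754 and 2666 (3.68-fold higher, 95% interval 3.39 to 4.0). Among genes of cell death (8 of 12, median 1.23) were the BH3-only gene BBC3 (PUMA) with 209, 137 and 429 (3.26-fold higher, 95% interval 2.68 to 3.98), the nuclease gene AEN with 1022, 823 and 2302 (2.91-fold), TP53I3 with 630, 301 and 1356 (4.69-fold higher, 95% interval 4.14 to 5.33) and the death receptor gene EDA2R with 14, 10 and 128 (13.3-fold higher, 95% interval 7.01 to 28.4). FDXR, a mitochondrial electron donor, had 490, 538 and 1711 (3.31-fold higher, 95% interval 3.0 to 3.65). MDM2, CDKN1A, BBC3, AEN and TP53I3 lay below shControl in shRNA 1 and above it in shRNA 2, but none by 2-fold on both sides. MDM2 was 2-fold away in shRNA 2 alone, CDKN1A and TP53I3 in shRNA 1 alone, and BBC3 and AEN in neither. Of 18 apoptosis regulators outside the target list none was higher and 1 was lower (median 0.34), BMF, chosen after its values were seen (278, 105 and 40). MCL1 (5627, 5934 and 6243) and BCL2L1 (1546, 2982 and 3739) had log2 ratios of 0.13 and 0.38.

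Cholesterol genes ran in the opposite direction. Of 26 measured genes of cholesterol synthesis and uptake 15 were at least 2-fold lower in the library labelled shRNA 2 and none higher, beside 4.48% of all genes lower. The median was −1.19, and 24 of 26 lay below 0. The median over shControl was 0.56 in shRNA 1 and −0.67 in shRNA 2, so the medians lay on opposite sides of the control, with 5 and 8 of the 26 genes at least 2-fold away from it. Next to HMGCS1, FDFT1 (squalene synthase) had 2884 counts in shControl, 5704 in shRNA 1 and 1657 in shRNA 2 and was 3.31-fold lower (95% interval 3.13 to 3.5). MSMO1, which removes methyl groups from the sterol ring, had 938, 1777 and 524 (3.26-fold lower, 95% interval 2.95 to 3.6). Both were higher in shRNA 1 than in shControl and lower than it in shRNA 2. Of the 20 enzymes 12 were lower. INSIG1, which retains SREBP when sterol is high, had 1433, 1714 and 504 (3.27-fold lower, 95% interval 2.96 to 3.62). INSIG1 was near shControl in shRNA 1 and low in shRNA 2.

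Related lipid genes were partly alike. Of 16 genes of fatty acid synthesis and desaturation 3 were lower and none higher (median −0.57): the desaturase SCD with 5926, 15534 and 5287 (2.82-fold lower, 95% interval 2.74 to 2.91) and the elongases ELOVL6 with 79, 653 and 203 (3.09-fold lower, 95% interval 2.64 to 3.64) and ELOVL5 with 1743, 1736 and 751 (2.22-fold lower, 95% interval 2.04 to 2.42). SCD was high in shRNA 1 alone, and ELOVL6 was above shControl in both libraries. Of 7 targets of the liver X receptor, which responds to oxidised sterols, 2 were higher and none lower: the cholesterol exporters ABCA1 with 2778, 736 and 2228 (3.15-fold higher, 95% interval 2.9 to 3.43) and ABCG1 with 143, 324 and 736 (2.36-fold higher, 95% interval 2.07 to 2.7). ABCA1 was lowest in shRNA 1, and ABCG1 was higher than shControl in shRNA 1 and higher again in shRNA 2.

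Mitosis genes lay lower in the library labelled shRNA 2. All 37 measured members were below 0, 13 of them by at least 2-fold, with a median of −0.92. Over shControl the medians were 0.06 and −0.76. CCNB1 (cyclin B1) had 4820 counts in shControl, 6163 in shRNA 1 and 2193 in shRNA 2 and was 2.7-fold lower (95% interval 2.57 to 2.84). CDC20, which activates the anaphase-promoting complex, had 3747, 4568 and 1472 (2.98-fold lower, 95% interval 2.81 to 3.16), the kinase gene AURKA 3065, 4352 and 1641 (2.55-fold lower, 95% interval 2.41 to 2.7) and the kinesin gene KIF20A 4159, 4628 and 1882 (2.36-fold lower, 95% interval 2.24 to 2.49). DLGAP5 had 1945, 3130 and 876 (3.43-fold lower, 95% interval 3.18 to 3.7) and HMMR 2401, 4540 and 1588 (2.75-fold lower, 95% interval 2.59 to 2.91). The kinetochore motor gene CENPE (303, 1254 and 367, 3.28-fold lower) and the spindle gene ASPM (923, 4388 and 1770, 2.38-fold) were unlike these. In both shRNA 1 was far above shControl, while shRNA 2 was near it for CENPE and above it for ASPM. DNA replication genes were close, with 1 of 31 lower and a median of −0.06. Replication histones (0 of 12 at 2-fold, median 0.42) held HIST1H2BK (348, 280 and 526) and HIST3H2A (91, 414 and 609).

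**Figure D4:**
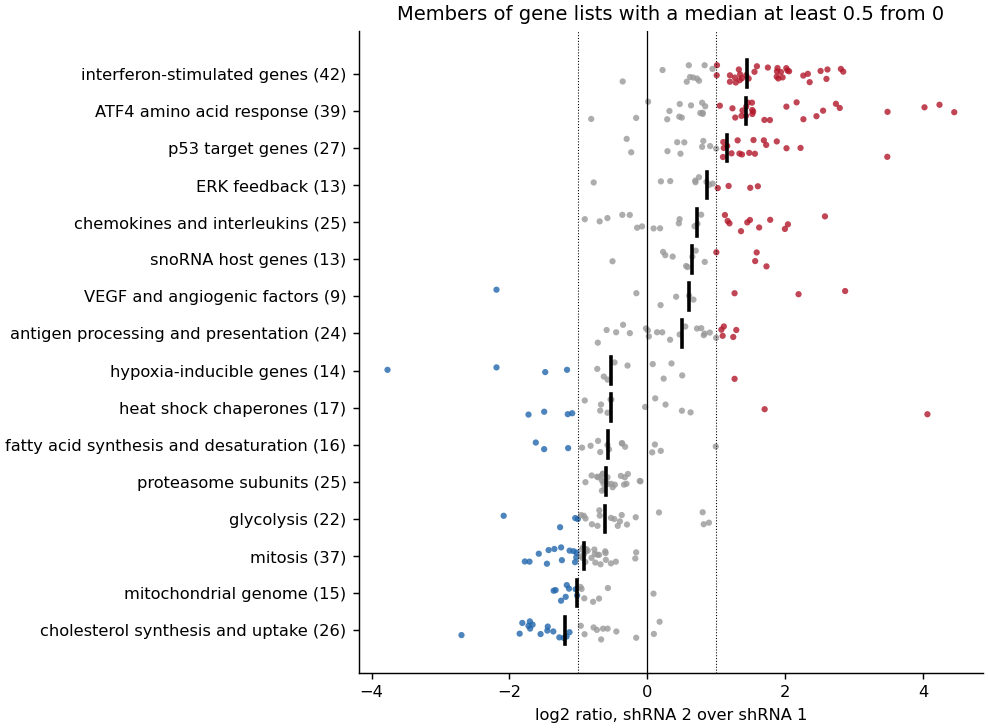
Each point is a measured gene of a list, by its log2 ratio of shRNA 2 over shRNA 1, with red at least 2-fold higher, blue at least 2-fold lower, the black bar at the list median and the number of measured genes in brackets. Interferon-stimulated (median 1.45) and ATF4 genes (1.43) lie farthest to the right, cholesterol genes (−1.19) farthest to the left, and all mitosis genes lie left of 0.

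Transcripts of the mitochondrial genome were lower. The library labelled shRNA 2 had 8 of its 15 genes at least 2-fold lower and 14 below 0, with a median of −1.02. They took 3.88% of counts in shControl, 4.58% in shRNA 1 and 2.51% in shRNA 2. MT-CO2, of cytochrome oxidase, had 76835 counts in shControl, 110165 in shRNA 1 and 41250 in shRNA 2 and was 2.57-fold lower (95% interval 2.54 to 2.6). MT-ND6, the 1 protein-coding gene of the light strand, had 10970, 13788 and 5267 (2.52-fold lower, 95% interval 2.44 to 2.6), MT-ND5 55567, 69573 and 28065 (2.38-fold) and MT-CYB 38415, 47218 and 20179 (2.25-fold). MT-CO3, MT-ATP6, MT-ND4 and MT-ND4L were 2.27-fold, 2.2-fold, 2.06-fold and 2.03-fold lower. The exception was MT-ND1, chosen after its values were seen, with 23169, 23907 and 24429 and a log2 ratio of 0.09. Nuclear partners differed by less. None of 32 nuclear respiratory chain genes reached 2-fold (median −0.46; ATP5A1 6877, 12266 and 6910, ATP5B 8395, 9481 and 6067), and neither did any of 18 mitochondrial ribosomal protein genes (median −0.37; MRPL37 2020, 2214 and 1639, MRPS18B 1256, 1758 and 2506). Of 14 genes that transcribe and maintain mitochondrial DNA 1 was higher, the coactivator PPARGC1B (299, 289 and 601, chosen after its values were seen), and the median was −0.16. LRPPRC (3127, 5099 and 5458), which stabilises mitochondrial messenger RNA, and SSBP1 (1921, 2062 and 1638), which coats single-stranded mitochondrial DNA, had log2 ratios of 0.16 and −0.27.

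Glycolysis and glucose-sensing genes were lower too. Of 22 glycolysis genes 4 were lower and none higher (median −0.61). LDHA, lactate dehydrogenase, had 33191 counts in shControl, 43748 in shRNA 1 and 9913 in shRNA 2 and was 4.24-fold lower (95% interval 4.15 to 4.33). PGK1 had 13730, 11898 and 4753 (2.41-fold lower), TPI1 10939, 8184 and 3807 (2.07-fold) and GPI 4316, 5842 and 2789 (2.01-fold). In scaled counts shRNA 1 was above shControl for LDHA and GPI and below it for PGK1 and TPI1. Of 4 targets of the glucose sensor MondoA, ARRDC4 (923, 453 and 180, 2.42-fold) was lower beside TXNIP (median −1.10). Of 14 hypoxia-inducible genes 4 were lower and 1 higher (median −0.53): ANGPTL4 (449, 74 and 14, 5.08-fold), the collagen prolyl hydroxylase P4HA1 (1420, 739 and 253, 2.81-fold), EGLN3 (138, 68 and 28, 2.33-fold) and CA9 were lower, all but CA9 stepwise from shControl through shRNA 1. VEGFA was the higher one. None of 16 genes of the pentose phosphate path and nucleotide synthesis reached 2-fold (median −0.17; TKT 5381, 8831 and 6323, PAICS 4943, 6375 and 3433).

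Cytosolic chaperones went both ways. Of 17 heat shock chaperones 4 were lower and 2 higher (median −0.53), while the endoplasmic reticulum chaperone HSPA5 was higher as given above. HSP90AA1 had 27241, 47377 and 16136 (2.82-fold lower, 95% interval 2.77 to 2.87), the small heat shock protein gene HSPB1 5868, 5907 and 1717 (3.31-fold lower, 95% interval 3.13 to 3.49), HSPH1 5011, 6895 and 2975 (2.23-fold) and HSPA8 24819, 26846 and 12116 (2.13-fold). The higher members, chosen after their values were seen, were the small heat shock genes CRYAB (120, 20 and 353, 18.4-fold higher, 95% interval 11.7 to 30.4) and HSPB8 (120, 68 and 217, 3.32-fold higher, 95% interval 2.52 to 4.43). All 25 proteasome subunit genes lay below 0 but none by 2-fold (median −0.60; PSMD2 24807, 12885 and 7070, PSMB7 4834, 5854 and 4057). Of 29 lysosome and autophagy genes 1 was lower, the galactosidase GLA (679, 791 and 232, 3.28-fold), and 2 were higher, SQSTM1 (p62, 4982, 3247 and 9712) and ULK1 (1637, 838 and 1823), both chosen after their values were seen. Of 16 genes linked to NRF2 5 were higher and 1 lower (median 0.43). They included the reductase AKR1B10 (17, 6 and 192, 33.3-fold higher, 95% interval 15 to 91.9), the heme oxygenase HMOX1 (1952, 517 and 1764, 3.55-fold higher, 95% interval 3.22 to 3.92) and the ferritin heavy chain FTH1 (3018, 4532 and 10114, 2.32-fold). HMOX1 was lowest in shRNA 1 and close to shControl in shRNA 2. The other higher members were SLC7A11 and, chosen after its values were seen, the thioredoxin reductase TXNRD1 (1867, 2690 and 5494), and the lower one was PIR (10, 82 and 26, chosen likewise), which was highest in shRNA 1.

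Ribosomal and RNA genes marked the scale of small differences. None of 27 ribosomal protein genes reached 2-fold (median −0.05; RPLP0 16508, 25305 and 23780, RPL4 18259, 23699 and 21832), nor did any of 20 ribosome biogenesis genes (median 0.23; NPM1 31258, 39592 and 32183, NCL 20436, 26479 and 25755). Host genes of small nucleolar RNAs, many of whose spliced transcripts are cleared by nonsense-mediated decay, were higher in 4 of 13 and lower in none (median 0.65). ZFAS1 had 880, 1000 and 3186 (3.32-fold higher, 95% interval 3.09 to 3.56), SNHG8 112, 214 and 621 (3.02-fold), EPB41L4A-AS1 215, 181 and 518 (2.98-fold) and SNHG12 291, 323 and 623 (2.01-fold). The nuclear long non-coding RNAs NEAT1 (9450, 22153 and 22140) and TUG1 (3230, 3780 and 3532) had log2 ratios of 0.06 and −0.04, and no member of that list of 7 reached 2-fold (median −0.04). None of 13 genes of small RNA processing did (median 0.07), with the slicer gene AGO2 at 1728, 1655 and 3082 (log2 ratio 0.95) and DICER1 at 1314, 1923 and 2696 (0.54). None of 4 metallothionein-list genes did either (MT2A 14229, 5862 and 5237, the zinc exporter SLC30A1 740, 1003 and 1482, median 0.01), nor any of 13 subunits of the H3K4 methyltransferase complex (KMT2A 4252, 4819 and 5288, WDR5 2032, 2526 and 2925, median 0.16). Of 15 commonly used reference genes PGK1 was lower and none was higher (median −0.42).

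Growth factor signalling showed some higher genes linked to ERK and a split TGF-beta family. Of 13 listed genes of ERK feedback and output 4 were higher and none lower (median 0.86). They were the transcription factor genes ETV5 (709, 315 and 923, 3.05-fold higher, 95% interval 2.68 to 3.48) and ETV4 (332, 341 and 667, 2.04-fold), the inhibitor SPRY1 (16, 46 and 128, 2.9-fold higher, 95% interval 2.05 to 4.15) and the phosphatase DUSP5 (187, 341 and 744, 2.27-fold). Of 11 EGF receptor family genes and ligands HBEGF alone was higher by 2-fold (344, 251 and 1047, 4.34-fold higher, 95% interval 3.78 to 5.0; list median 0.47). Among 9 VEGF and angiogenic genes (median 0.60), VEGFA had 1226, 1051 and 2429 (2.41-fold higher, 95% interval 2.24 to 2.59), PGF 103, 40 and 183 (4.76-fold higher, 95% interval 3.37 to 6.88) and the receptor KDR 13, 4 and 41 (10.7-fold higher, 95% interval 3.86 to 41), while ANGPTL4 was the 1 lower gene. VEGFA was above shControl in shRNA 2 and below it in shRNA 1, and PGF and KDR were also low in shRNA 1. Of 20 integrin and laminin genes 1 was higher, LAMB3 (18471, 7734 and 25596, chosen after its values were seen), and 2 were lower, LAMB1 (10040, 5777 and 2193, 2.53-fold) and LAMA4 (44, 165 and 55, 2.88-fold).

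The TGF-beta and activin list held 4 higher and 6 lower genes of 21 (median 0.06). It does not include INHBE, the activin E subunit gene given above. Higher were the ligands GDF15, BMP2 (45, 9 and 38, 4.39-fold higher, 95% interval 2.09 to 10.3) and BMP6 (67, 6 and 29, 5.03-fold higher, 95% interval 2.05 to 14.8) and the co-receptor TGFBR3 (74, 366 and 835, 2.37-fold higher, 95% interval 2.1 to 2.69). BMP2 and BMP6 were below shControl in both libraries and lowest in shRNA 1. Lower were genes known as targets or inhibitors of BMP signalling, ID3, SMAD6 (6.49-fold) and, chosen after their values were seen, ID1 (985, 5170 and 1166, 4.26-fold lower, 95% interval 4.0 to 4.54), ID2 (81, 410 and 89, 4.43-fold lower, 95% interval 3.51 to 5.63) and BAMBI (841, 358 and 150, 2.29-fold lower, 95% interval 1.89 to 2.79), with the ligand BMP4 (50, 52 and 18, 2.78-fold lower, 95% interval 1.6 to 5.04). ID1, ID2 and SMAD6 were several-fold above shControl in shRNA 1 and near or below it in shRNA 2, whereas ID3 and BMP4 were low in shRNA 2 alone. Of 12 targets of YAP and TEAD 1 was higher, ANKRD1 (220, 69 and 356, 5.37-fold higher, 95% interval 4.14 to 7.05), and 1 lower, CTGF (3633, 893 and 263, 3.26-fold lower, 95% interval 2.84 to 3.76, chosen after its values were seen). Immediate early genes (3 of 19 higher, 1 lower, median 0.27) held EGR2 (64, 14 and 112, 8.33-fold higher, 95% interval 4.76 to 15.7), NR4A1 (38, 24 and 85, 3.69-fold) and NR4A3 (18, 8 and 27, 3.51-fold), all on few counts, and the lower one was KLF10 (2138, 1870 and 715, chosen after its values were seen). No gene of Wnt (17 measured, median −0.19; DKK3 4209, 1821 and 1808, WNT7B 2030, 1210 and 1460) or Notch signalling (9, median 0.21; JAG1 8567, 1133 and 1027, NOTCH2 4095, 3108 and 3465) reached 2-fold.

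Cell identity genes differed mainly on the mesenchymal side. Of 24 mesenchymal genes 7 were lower and 2 higher (median −0.49), and the 7 were of the list's 18 matrix, adhesion and cytoskeleton genes. VIM, the intermediate filament of mesenchymal cells, had 7583 counts in shControl, 1061 in shRNA 1 and 154 in shRNA 2 and was 6.62-fold lower (95% interval 5.59 to 7.89). N-cadherin, CDH2, had 3277, 125 and 22 (5.46-fold lower, 95% interval 3.45 to 9.02), and the matrix protein SPARC had 42380, 11676 and 2401 (4.67-fold lower, 95% interval 4.47 to 4.88). VIM, CDH2, SPARC and LOXL2 were all lower in shRNA 1 than in shControl and lower still in shRNA 2. The summed level of 12 fibroblast and smooth muscle markers was 369 CPM in shControl, 22.4 in shRNA 1 and 15.4 in shRNA 2. Between the hairpin libraries, however, the 5 measured markers had a median log2 ratio of 0.50, with 2 higher and 1 lower. Their part in these values was not tested. The 2 higher members were transcription factors, SNAI2 (1408, 318 and 703, 2.3-fold higher, 95% interval 2.01 to 2.64) and ZEB1 (116, 12 and 28, 2.43-fold higher, 95% interval 1.2 to 5.24), both chosen after their values were seen and both below shControl in either library. Of 22 actin and SRF genes 2 were lower, MYL6 (2845, 2335 and 810, 2.77-fold) and TPM2 (1693, 1386 and 599, 2.22-fold), and 2 were higher, TAGLN (3916, 329 and 1085) and ACTA2 (38, 38 and 107), chosen after their values were seen (median −0.14).

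Of 48 epithelial genes 4 were higher and 3 lower (median −0.13), shares near the 8.35% and 4.48% of all genes. KRT5, a basal keratin, had 5590, 6605 and 1707 (3.72-fold lower, 95% interval 3.52 to 3.92), KRT19 9382, 23999 and 8677 (2.66-fold lower, 95% interval 2.59 to 2.72) and the uroplakin UPK1B 306, 2311 and 923 (2.41-fold lower, 95% interval 2.23 to 2.6). Higher, and chosen after their values were seen, were KRT17 (7238, 3063 and 7304, 2.48-fold higher, 95% interval 2.38 to 2.59), KRT15 (70, 226 and 529, 2.44-fold higher, 95% interval 2.08 to 2.86), CLDN1 (881, 2965 and 6827, 2.4-fold higher, 95% interval 2.29 to 2.5) and KLF4 (276, 490 and 1141, 2.42-fold higher, 95% interval 2.18 to 2.7). KRT19 and UPK1B peaked in shRNA 1, and KRT17 was low there. Of 12 squamous and cornified genes 3 were higher and 1 lower (median −0.29). The lower one was KRT13 (478, 2327 and 829, 2.7-fold lower, 95% interval 2.49 to 2.92), and the higher ones, chosen after their values were seen, were the iron-scavenging lipocalin LCN2 (291, 571 and 5068, 9.24-fold higher, 95% interval 8.47 to 10.1), TGM1 (39, 44 and 108, 2.55-fold) and PI3 (9, 13 and 31, 2.48-fold). In the kynurenine and AHR list (2 higher and 1 lower of 9, median −0.04), the tryptophan-degrading IDO1 had 3, 295 and 94 (3.02-fold lower, 95% interval 2.38 to 3.85), highest in shRNA 1. Its 2 higher members, chosen after their values were seen, were CYP1B1 (84, 282 and 1173, 4.33-fold higher, 95% interval 3.8 to 4.95) and AHRR (56, 45 and 118, 2.73-fold), both known targets of the aryl hydrocarbon receptor.

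Markers of other cell types were mostly scarce. The summed level of 16 leukocyte markers was 235 CPM in shControl, 149 in shRNA 1 and 194 in shRNA 2, and CD3D, CD68 and TYROBP were at 0 in all 3. The sums were 42.0, 9.85 and 21.8 CPM for 13 endothelial markers (EMCN and LYVE1 at 0 in all), 42.8, 36.7 and 46.2 for 13 neuronal and neuroendocrine markers (DCX and GAP43 at 0 in all) and 31.8, 51.4 and 23.5 for 9 hepatocyte markers. Single members were higher in the library labelled shRNA 2 beside ITGAM, with LAPTM5 at 64, 73 and 264 (3.76-fold higher, 95% interval 2.89 to 4.95), CSF1R at 1496, 263 and 518 (2.05-fold), ROBO4 at 155, 39 and 152 (4.06-fold higher, 95% interval 2.84 to 5.93), CHGA at 32, 22 and 179 (8.47-fold higher, 95% interval 5.42 to 13.9) and NEFL at 17, 17 and 40 (2.45-fold). FAP (102, 8 and 21, 2.73-fold) and PDGFRB (152, 15 and 31, 2.15-fold) were higher on few counts and below shControl, PDGFRL (27, 28 and 12, picked after seeing its values) was lower on few counts, and SERPINA1 (474, 916 and 386, 2.28-fold lower, 95% interval 2.02 to 2.57) was lower. The part of other cells in these values was not tested.

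The promoters of genes higher in the library labelled shRNA 2 held the motifs shown above more often than those of all genes. RefSeq gave a promoter for 10370 of the 15132 genes (68.5%), each of 300 bases. The ISRE motif was present in 2.89% of all promoters, 7.07% of those of higher genes and 1.58% of those of lower genes. It was in 23 of 33 promoters of the interferon list (69.7%). Outside that list 277 genes held it, of which 35 (12.6%) were higher and 7 (2.53%) lower, beside 7.10% and 4.27% of all genes with a promoter. TGATGNAA was present in 1.57% of all, 3.4% of higher and 1.13% of lower genes, and in 7 of 32 promoters of the ATF4 list (21.9%). Outside that list 156 genes held it, of which 21 (13.5%) were higher and 5 (3.21%) lower. Only the named list was left out in each case. Genes of the other lists, such as those of interferon signalling, antigen presentation and chemokines, were not removed from these shares. The sterol element TCACNCCAC, in 1.09% of all promoters, was in 0.677% of those of lower genes and in 1 of 19 of the cholesterol list, that of SREBF2. The p53 response element was in 2 of the 10370 promoters and in 0 of 21 of the p53 list. It was searched as an exact pattern within these 300 bases only. With so few matches among all promoters, its absence from the p53 list cannot be read as a lack of p53 sites. A match is a description of letters and not evidence of binding.

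The shares of genes that differed also varied by level, base composition and type, though the filter may have shaped those by level. By quartile of mean CPM, from lowest to highest, 18.1%, 7.93%, 3.65% and 3.75% of genes were higher and 6.71%, 4.81%, 2.67% and 3.73% lower. By quartile of transcript GC content, 4.22%, 6.56%, 10.5% and 12.2% were higher and 5.15%, 5.74%, 4.25% and 2.79% lower. The median GC content was 53.4% for higher, 46.0% for lower and 48.5% for all genes (a value was found for 99.5% of genes). Long intergenic RNA genes were higher in 18.5%, antisense genes in 14.8% and protein-coding genes in 7.6%. Chromosome medians ran from −0.13 (X) to 0.12 (16), apart from the mitochondrial genome. With ratios centred within bins of GC content, a setting added after the data were seen, 1170 genes were higher and 693 lower. Mean CPM includes both compared libraries and also sets the filter. Of the higher genes, 195 were under 1 CPM in both other libraries. They passed the filter only through the library in which they were higher. Part of the excess of higher genes in the lowest quartile of level may therefore come from the filter. The size of that part was not tested, nor was the part of level in the shares by gene type.

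**Figure D5:**
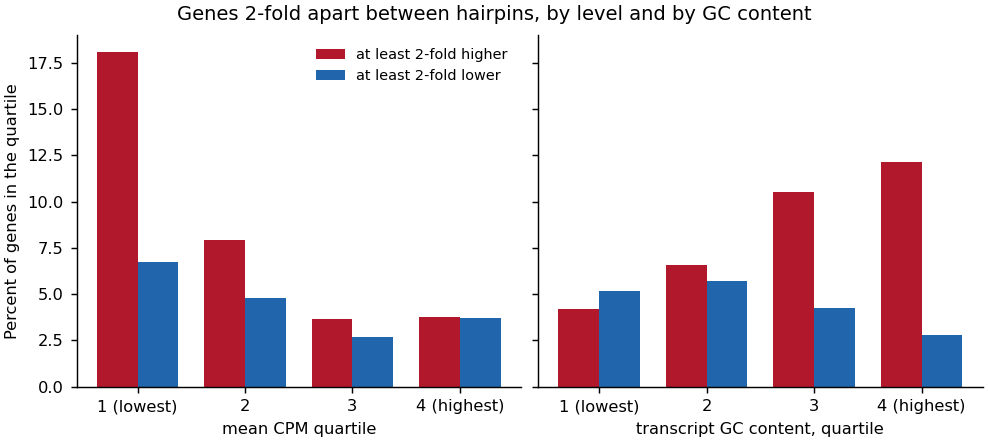
Bars give the percentage of genes at least 2-fold higher (red) or lower (blue) in shRNA 2 than in shRNA 1, by quartile of mean CPM on the left and of transcript GC content on the right. Higher genes are most frequent in the lowest quartile of level (18.1%) and in the highest quartile of GC content (12.2%), and lower genes least frequent in the latter (2.79%).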

How the data were processed

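Expression was measured by RNA sequencing of polyA+ RNA in 3 libraries, 1 per group, and samples were grouped by their labels. The authors deposited whole-number read counts and FPKM values per gene. Reads were aligned with TopHat2 2.0.9 to hg38, per the submitters' processing notes. The counting tool, its strand setting and the annotation used remain not given in the sources used here. The deposited FPKM is a count scaled by gene length and library total, and was not used for ratios between libraries. The table had 50871 lines. The row of TGFB1 was broken and left out, leaving 50867 genes, of which 19696 had no count.

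Counts were scaled with edgeR 4.0.16 TMM factors (0.924 for shControl, 1.02 for shRNA 1, 1.06 for shRNA 2), and log2 CPM was taken with a prior count of 2 for the 15132 genes that averaged at least 1 CPM. With 1 library a side no test was run. Intervals are exact conditional binomial intervals at the 95% level and cover counting error only; a count of 0 was set against a floor of 3 counts. The size rule was tried on simulated counts with a small spread set in advance. It called 96% of genes simulated 3-fold apart and 0.348% of unchanged genes. The spread between real cultures is not known, so these shares do not give the error of the rule in these data. Gene types, lengths and GC content come from GENCODE release 29, and promoters from RefSeq. The 55 gene lists (1105 genes, 1008 measured) and the members were chosen with earlier results of these data known.

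Named were LINC00958, the 12 highest and 12 lowest genes by the interval bound nearest to equality, up to 6 genes per direction on opposite sides of shControl, and per list up to 4 members at least 2-fold apart in the direction of its median, up to 8 where that median was at least 0.5 from 0, or else the 2 of highest mean level. Some members that this rule names are not reported here, though the list counts include them. Alternatives were DESeq2 1.42.0 size factors, library totals, totals without the mitochondrial genome and FN1, no filter, a filter of 5 CPM, and prior counts of 0.5 and 5, with centring in 20 GC bins and the interval rule added after the data were seen.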

Additional observations from a re-analysis of the deposited data

Results flagged for a closer look

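For 21 of the named genes the hairpin libraries lay on opposite sides of shControl by at least 2-fold each. The difference was not tested, since each side is 1 library. On the log2 scale, the value of shRNA 1 over shControl was −2.03 for INHBE, −2.03 for LCE1B, −2.11 for PAPPA2, −2.51 for LHX3, −2.20 for IGHG1, −2.11 for PRAP1 and −2.07 for WDFY4. It was −1.74 for CYP4F2, −1.11 for CREB5, −1.60 for ITGAM, −1.51 for ALDH1L2, −1.56 for NUPR1, −1.27 for SLC43A1, −1.45 for AKR1B10 and −1.51 for KDR. All of these were higher than shControl in shRNA 2. The value was 1.83 for PRAMEF1, 1.28 for HMGCS1, 1.12 for ADAM22, 1.42 for MXRA5, 1.09 for TNIK and 1.55 for SMAD6, all of which were lower than shControl in shRNA 2. Apart from ALDH1L2, the genes with negative values had 0 to 13 counts in shRNA 1, so those values rest on few reads, and those of PAPPA2 and PRAP1, at 0 counts there, depend on the prior count. HMGCS1, TNIK and SMAD6 had at least 37 counts in each library.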

How the results depend on the processing

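No paired analysis was possible because each group holds 1 library. The numbers of higher and lower genes were 1264 and 678. They were 2923 and 1511 without the low-expression filter, 662 and 409 with a filter of 5 CPM, and 743 and 306 when the whole counting interval had to lie beyond 2-fold, an alternative chosen after the data were seen; fewer or more genes enter by construction. Higher genes made up 65.1% of those at least 2-fold apart and between 61.8% and 70.9% under the other scalings, filters, prior counts and GC-bin centring. Of the 19 lists with a median at least 0.5 from 0, over 152 alternative values, 151 kept their sign within the spread allowed and 1 reversed: the neuronal and neuroendocrine markers, at 0.68, were at −0.14 with the filter of 5 CPM, which leaves fewer members. Of 1345 alternative values for 197 named genes 54 moved, in 35 genes, and none reversed. With library totals as the scaling the median log2 ratio over all genes was 0.07 between the hairpin libraries, but 0.14 for shRNA 1 and 0.24 for shRNA 2 over shControl, against 0.01 and 0.04 with TMM. Depth limits the genes with few counts, whose intervals are wide, and 1 library a side leaves variation between cultures unmeasured.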

Other observations

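Genes that differed lay beside each other more often than genes at large, a description that the labels' design does not address. Of 779 higher genes with a measured neighbour within 10 kb, 173 (22.2%) had a higher neighbour, against 703 of 10277 genes (6.84%) overall. For lower genes it was 53 of 374 (14.2%) with a lower neighbour, against 362 (3.52%). Some neighbours overlap and may share reads. A neighbour also had to pass the expression filter, and 195 of the 1264 higher genes were under 1 CPM in both other libraries. Such genes entered only through shRNA 2, so part of the excess among higher genes may come from the filter. The size of that part was not tested.

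Clusters of related genes, chosen after their values were seen, were among them. On chromosome 1 the late cornified envelope genes LCE1B, LCE1C (33, 15 and 305 counts in shControl, shRNA 1 and shRNA 2), LCE1E (14, 3 and 112) and LCE1F (5, 2 and 71) were all higher, by 21.2-fold (95% interval 12.6 to 38.3) for LCE1C. On chromosome 11 the gel-forming mucin genes MUC5B (11, 6 and 186, 32.3-fold higher, 95% interval 14.5 to 89) and MUC5AC (21, 15 and 66, 4.58-fold higher, 95% interval 2.59 to 8.64) were higher with MUC2. On chromosome 19 the cytochrome P450 genes CYP4F3 (43, 169 and 1513, 9.32-fold higher, 95% interval 7.94 to 11) and CYP4F11 (129, 521 and 1153, 2.3-fold higher, 95% interval 2.08 to 2.56) were higher with CYP4F2, while CYP4F12 (13, 132 and 199) had a log2 ratio of 0.64. Members of each family are similar in sequence, and the share of reads that could be counted to more than 1 of them is not known.

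More genes were detected in the library labelled shRNA 2, although it had the fewest counts. At least 1 count was found for 25872 genes in shControl, 26172 in shRNA 1 and 27217 in shRNA 2, and at least 10 counts for 15996, 16367 and 17026. A BH3-only gene of cell death outside the lists, HRK (picked after seeing its values), was 11.2-fold higher (95% interval 8.57 to 15), with 8, 58 and 626 counts.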
